A study of Homo sapiens with 16 samples.

Results

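JUNB binding was compared between A375 cells given TGFB1 and cells given the vehicle. A JUNB site is 1 interval of a deposited peak list on chromosomes 1 to 22 or X, with identical intervals counted once. A site was shared when it overlapped an interval of the other JUNB list by at least 1 bp, and otherwise belonged to 1 condition alone. The lists held 64146 sites with TGFB1 and 38272 with vehicle, together 102418 of the 399028 intervals in all lists of the series. Of these, 37350 were TGFB1-only, 26796 TGFB1 sites and 27093 vehicle sites were shared, and 11179 were vehicle-only. The shared numbers differ because 1 wide interval can meet several on the other side.

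A375 is an established human melanoma line, and no genotype beyond the line is given in the labels. TGFB1 cells were starved for 2 h and then received the ligand at 10 ng/mL for 2 h. Vehicle cells were starved in the same way and had the carrier, 4 mM HCl and BSA at 1 mg/mL, over the same 2 h. The series holds 16 samples, of which 10 are immunoprecipitated libraries with a peak list (JUNB, ATF3, SMAD2/3, H3K27ac and MITF in both conditions) and 6 are inputs, not analysed here. The design text mentions technical triplicates, while the labels list 1 JUNB library a side, so the comparison has neither replicates nor a test, and a single cell line limits what the libraries stand for. The peak lists hold no RNA measurements against which the labelled cell type could be set.

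JUNB is a subunit of AP-1, a family of paired basic leucine zipper proteins of the JUN, FOS, ATF and MAF groups. JUN and FOS pairs recognise a short palindrome, while pairs with ATF or CREB partners prefer a related element with 1 more central base. AP-1 is a known partner of SMAD proteins at TGF-beta target genes, and in melanoma AP-1 activity is associated with dedifferentiated states. TGF-beta receptors phosphorylate SMAD2 and SMAD3, which then enter the nucleus.

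The sequences below show the letters that carry the comparison: the AP-1 element (TGACTCA or TGAGTCA) and the cAMP response element, CRE (TGACGTCA), at promoters that held a JUNB summit. Each is given from 5′ to 3′ on the strand of the gene, from the RefSeq promoter windows of GRCh38.p14. The element is in capitals, with up to 30 bases on each side. Printing stopped shortly after the transcription start, before the end of the window, which shortens the TGFBR2 and PMEPA1 stretches. The first 4 belong to genes named for their JUNB sites, and the last 4 were chosen after their values had been seen.
LAMB3, shared site, chr1:209651405-209651471, minus strand: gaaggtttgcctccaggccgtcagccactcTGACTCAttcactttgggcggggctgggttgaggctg
DHRS3, shared site, chr1:12596662-12596728, minus strand: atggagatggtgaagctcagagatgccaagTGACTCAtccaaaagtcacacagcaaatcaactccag
TGFBR2, shared site, chr3:30606565-30606604, plus strand: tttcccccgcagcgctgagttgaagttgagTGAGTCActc
JUND, vehicle-only site, chr19:18281785-18281852, minus strand: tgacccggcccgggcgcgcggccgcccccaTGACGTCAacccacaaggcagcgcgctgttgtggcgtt
IL11, shared site, chr19:55370523-55370589, minus strand: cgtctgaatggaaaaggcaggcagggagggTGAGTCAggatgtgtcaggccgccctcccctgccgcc
PLAUR, shared site, chr19:43670319-43670385, minus strand: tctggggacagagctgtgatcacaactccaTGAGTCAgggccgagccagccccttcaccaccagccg
SPRED3, TGFB1-only site, chr19:38389701-38389767, plus strand: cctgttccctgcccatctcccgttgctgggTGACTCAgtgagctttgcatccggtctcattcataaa
PMEPA1, TGFB1-only site, chr20:57710012-57710049, minus strand: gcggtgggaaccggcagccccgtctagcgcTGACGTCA

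TGFBR2, the type II TGF-beta receptor, had the strongest of these sites, with a fold enrichment of 25.1 and its summit 11 bp from the centre of the AP-1 letters. Fold enrichment and −log10 p of a site are the authors' own values from the peak caller, and they are used here to rank or describe sites within 1 list. Exceptions are the depth estimates and the cutoffs set alike on both lists. At LAMB3, a laminin chain, the fold enrichment was 10.2 and the summit lay 12 bp from the element. At DHRS3, a retinaldehyde reductase, the values were 12.6 and 18 bp. These 3 summits therefore lay almost on the letters. IL11, a cytokine induced by TGF-beta in several cell types, and PLAUR, the urokinase receptor, had fold enrichments of 10.5 and 8.41 with summits 75 and 33 bp away. SPRED3, a Ras pathway inhibitor, had a TGFB1-only site of fold enrichment 6.31 with its summit 73 bp from the element. PMEPA1, which restrains SMAD signalling, had a TGFB1-only site of 6.78 with its summit 4 bp from a CRE. JUND, another JUN protein, had a vehicle-only site of 4.99, and its CRE lay 102 bp from the summit and outside the called interval.

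Shared promoter sites carried the AP-1 letters far more often than the one-condition sites did. Promoter windows run from 250 bases before to 50 after a start, and each was searched on both strands. Of windows holding a JUNB summit, TGACTCA or TGAGTCA was present in 175 of 2262 with a TGFB1-only summit (7.74%, 6.71 to 8.91%), in 423 of 1253 with a shared one (33.8%, 31.2 to 36.4%) and in 18 of 326 with a vehicle-only one (5.52%, 3.52 to 8.56%). All 34789 windows held the letters at 4.93%, and the 13452 windows with H3K27ac of the TGFB1 library but no JUNB summit held them at 1.56%. The intervals here and below are 95% Wilson intervals over sites or windows and cover counting error only. At TGFB1-only and shared sites the letters went with peak strength. With a −log10 p under 15 the letters were in 5.92% of TGFB1-only and 11.8% of shared windows. With 15 or more they were in 19.5% of 302 TGFB1-only and 48.2% of 755 shared windows. For vehicle-only windows the comparison has too few strong sites, with the letters in 5.59% of 322 windows under 15 and in 0 of 4 windows at 15 or more. The summit lay within 50 bp of the element in 77.1% of TGFB1-only, 91.5% of shared and 61.1% of vehicle-only windows that held it.

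The CRE was distributed differently. TGACGTCA was present in 6.76% (5.80 to 7.87%) of TGFB1-only, 4.31% (3.32 to 5.58%) of shared and 4.60% (2.81 to 7.45%) of vehicle-only windows, against 1.84% of all windows and 2.14% of acetylated windows without a JUNB summit. The E-box CACGTG, a site of other leucine zipper proteins such as MITF, was at 11.3%, 9.10% and 9.82% of the same classes, against 7.24% of all windows and 8.99% of acetylated windows without a JUNB summit, which is close to the shared and vehicle-only values. The SMAD palindrome GTCTAGAC was in 2 TGFB1-only, 1 shared and 1 vehicle-only window. These windows cover promoters alone, and the larger number of JUNB sites far from genes could not be searched without a genome sequence.

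JUNB was called at more sites after TGFB1, and the sites without a counterpart were mainly the weaker ones. The lists differed by a ratio of 1.68, and the TGFB1-only sites outnumbered the vehicle-only sites by a ratio of 3.34. Of TGFB1 sites, 58.2% (57.8 to 58.6%) were absent from the vehicle list, and of vehicle sites, 29.2% (28.8 to 29.7%) were absent from the TGFB1 list. The 1000 sites of highest −log10 p in each list were all shared. Among the 5000 highest, 64 of the TGFB1 list and 8 of the vehicle list were not. With each list cut into 10 equal parts by −log10 p, the share of shared sites ran, weakest to strongest part, from 3.74% to 98.1% with TGFB1 and from 19.96% to 99.9% with vehicle. Median fold enrichment was 4.36 at TGFB1-only sites and 8.71 at shared sites of the same list, and it was 6.46 at shared sites of the vehicle list and 4.16 at vehicle-only sites. Their median widths were 195, 290, 227 and 173 bp in the same order. One-condition sites were thus the weaker and narrower part of either list.

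**Figure D1:**
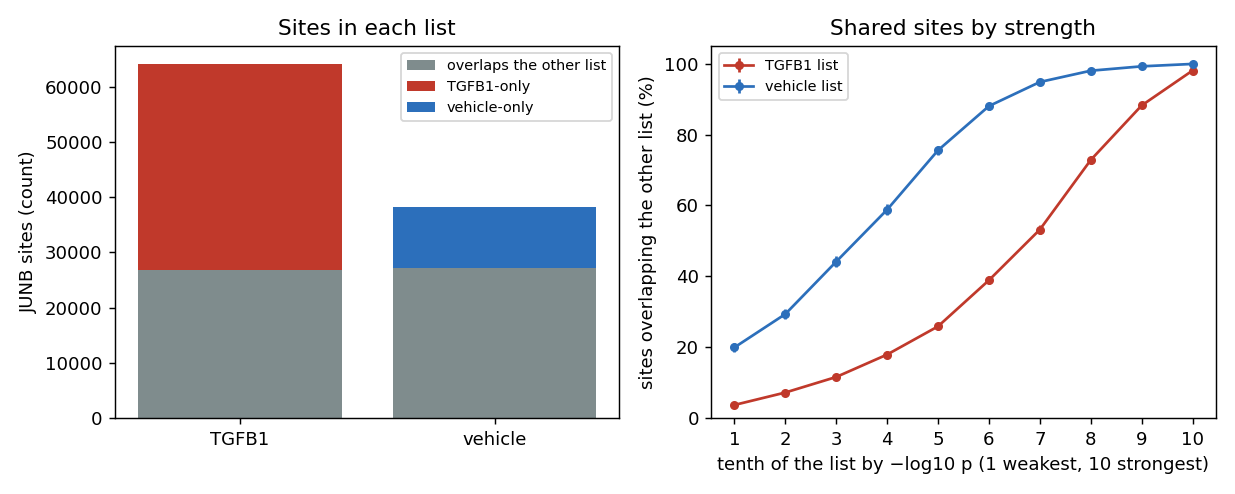
Left, number of JUNB sites in the TGFB1 and vehicle lists, divided into sites that overlap the other list (grey) and one-condition sites (red for TGFB1, blue for vehicle). Right, percentage of sites overlapping the other list in each of 10 equal parts of a list by −log10 p, with 95% Wilson intervals; both curves climb, to 98.1% in the TGFB1 list and 99.9% in the vehicle list.

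The TGFB1 library was also the deeper one. Read depth implied by the peak values was 47.7 M reads with TGFB1 and 34.1 M with vehicle, and median pileup at a summit was 24 and 19 reads. With TGFB1 pileups scaled to the vehicle depth, 61650 of the TGFB1 sites still reached the lowest −log10 p of the vehicle list, among them 34925 without a vehicle site. When the TGFB1 list was shortened to the length of the vehicle list by −log10 p, 63.1% of the TGFB1 sites and 64.0% of the vehicle sites were shared. The one-condition counts, 14129 in TGFB1 and 13795 in vehicle, are then nearly equal by construction and say nothing of the excess. Depth, the yield of each immunoprecipitation and the ligand cannot be told apart with 1 library a side.

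By definition no one-condition site overlaps a site of the other list. Of these sites, 2081 TGFB1-only (5.57%) had a vehicle site within 500 bp, and 806 vehicle-only (7.21%) had a TGFB1 site that near. The share for randomly placed sites was not computed, so these values do not say whether such sites keep apart. A shared site lay within 5 kb of 20.6% (20.2 to 21.02%) of TGFB1-only and 14.6% (13.96 to 15.3%) of vehicle-only sites, and the median distance to one was 24.98 and 33.57 kb. TGFB1-only sites were thus closer to shared JUNB sites than vehicle-only sites were, beyond counting error.

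By location, most JUNB sites of every class lay away from gene ends, but TGFB1-only sites lay at them more often. Counting summits no more than 1 kb from either gene end, the shares were 12.3% (11.97 to 12.6%) for TGFB1-only, 7.57% (7.26 to 7.89%) for shared and 8.39% (7.89 to 8.92%) for vehicle-only sites. Measured to annotated transcription starts, the shares within 1 kb were 10.9%, 6.89% and 7.12%. Elsewhere in gene bodies lay 42.2%, 43.1% and 42.7%, which was nearly the same in all classes. Beyond 100 kb of any gene lay 17.2% of TGFB1-only, 17.6% of shared and 19.8% (19.1 to 20.6%) of vehicle-only summits.

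Peak strength moved with this difference. Among sites with a −log10 p from 3 to 7, gene ends held 13.4% of TGFB1-only and 20.4% of shared sites of the TGFB1 list, and with 25 or more they held 4.03% and 5.31%. Strong JUNB sites of both classes were therefore the least often at gene ends. From 7 to 10 the shares were 14.9% and 15.7%, from 10 to 15 they were 11.99% (11.3 to 12.7%) and 10.5% (9.54 to 11.6%), and from 15 to 25 they were 7.74% and 7.56%. TGFB1-only sites were thus below shared ones in the bands under 10 and at 25 or more, and above them in the bands from 10 to 25. Outside the band from 3 to 7 the intervals of TGFB1-only and shared sites overlapped, and the differences themselves were not tested. Bands were not compared across lists, since −log10 p grows with depth and the vehicle library was shallower. Within the vehicle list, gene ends held 7.82% (7.19 to 8.50%) of vehicle-only and 16.5% (15.1 to 18.1%) of shared sites from 3 to 7. From 7 to 10 the shares were 9.35% and 10.8%, and from 10 to 15 they were 9.18% (7.51 to 11.2%) and 6.69% (6.12 to 7.31%). From 15 to 25 they were 5.92% of only 152 vehicle-only sites and 5.19% of shared ones. With 25 or more they were 4.17% of 24 and 5.50%.

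**Figure D2:**
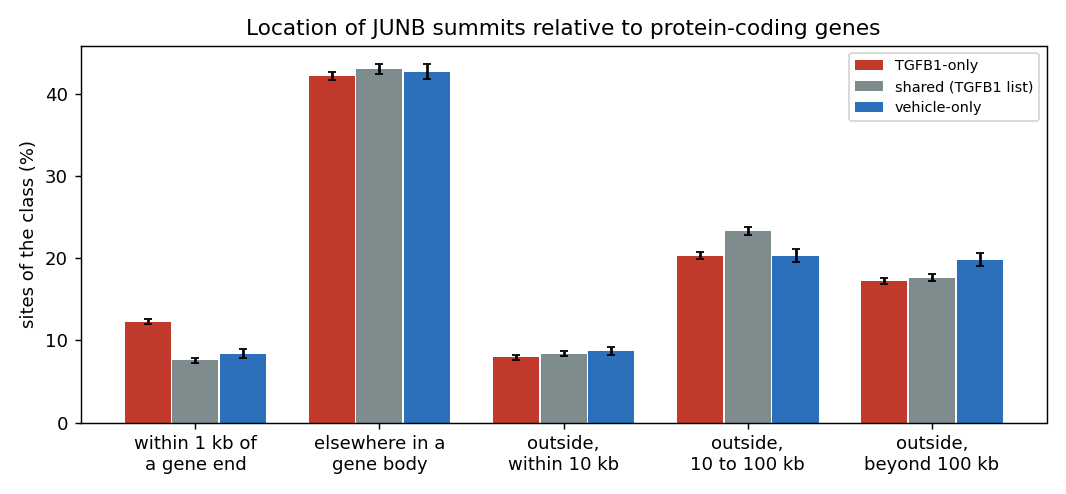
Percentage of JUNB summits of each class by position relative to protein-coding genes, with 95% Wilson intervals, for TGFB1-only (red), shared (grey, TGFB1 list) and vehicle-only sites (blue). The classes are close in gene bodies, at 42.2%, 43.1% and 42.7%, and TGFB1-only sites are highest within 1 kb of a gene end, at 12.3%.

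Acetylation set the classes further apart. H3K27ac marks active promoters and enhancers, and its libraries were prepared on another date than JUNB. An H3K27ac peak of TGFB1-treated cells overlapped 28.1% (27.7 to 28.6%) of TGFB1-only, 47.8% (47.2 to 48.4%) of shared and 15.7% (15.0 to 16.3%) of vehicle-only sites. An H3K27ac peak of vehicle-treated cells overlapped 26.5%, 44.5% and 15.4%. Most TGFB1-only JUNB sites on acetylated chromatin thus lay where the mark was called in vehicle cells as well: 24.5% of the class had it in both libraries, 3.58% with TGFB1 alone and 2.01% in vehicle alone. The rule for overlap matters here, since with the JUNB summit required inside the H3K27ac peak the shares with the mark of their own condition were 21.99% of TGFB1-only, 24.0% of shared and 12.6% of vehicle-only sites. Shared sites are the widest class, and under that rule TGFB1-only and shared sites were close.

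Location and acetylation went together. H3K27ac with TGFB1 was present at 83.1% (81.96 to 84.1%) of TGFB1-only sites at gene ends, at 23.04% of those elsewhere in gene bodies and at 12.1% of those beyond 100 kb. Vehicle-only sites had it at 72.8%, 12.6% and 5.41% of the same places. Shared sites had it at 84.6%, 47.99% and 32.7%.

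ATF3, a stress-induced AP-1 family member that pairs with JUN proteins and was profiled on the same date, marked the shared sites most. ATF3 with TGFB1 lay at 21.4% (20.96 to 21.8%) of TGFB1-only, 59.8% (59.2 to 60.4%) of shared and 7.64% (7.16 to 8.15%) of vehicle-only JUNB sites. Within the TGFB1 list, TGFB1-only sites were below shared ones in every band of −log10 p, with 9.42% and 31.0% from 3 to 7, 39.1% and 48.2% from 15 to 25, and 53.8% and 74.2% at 25 or more. Unlike acetylation, the ATF3 share at TGFB1-only sites varied little with position, at 24.3% at gene ends, 20.6% in gene bodies and 19.3% beyond 100 kb. SMAD2/3 with TGFB1 lay at 4.74%, 19.5% and 1.82% of the classes, and at 11.9% of TGFB1-only sites at gene ends against 3.08% beyond 100 kb. MITF, the pigment lineage factor, lay at 2.40%, 6.04% and 1.20%.

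Taking the 4 other marks of the matching condition together, 58.5% (58.0 to 59.0%) of TGFB1-only sites and 80.8% (80.02 to 81.5%) of vehicle-only sites overlapped none. Of shared sites, 23.9% of the TGFB1 list (with TGFB1 marks) and 49.5% of the vehicle list (with vehicle marks) overlapped none. All 4 were present at 81 TGFB1-only and 615 shared sites. The vehicle lists of ATF3 and SMAD2/3 are shorter than their TGFB1 lists, which limits the vehicle-only value.

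**Figure D3:**
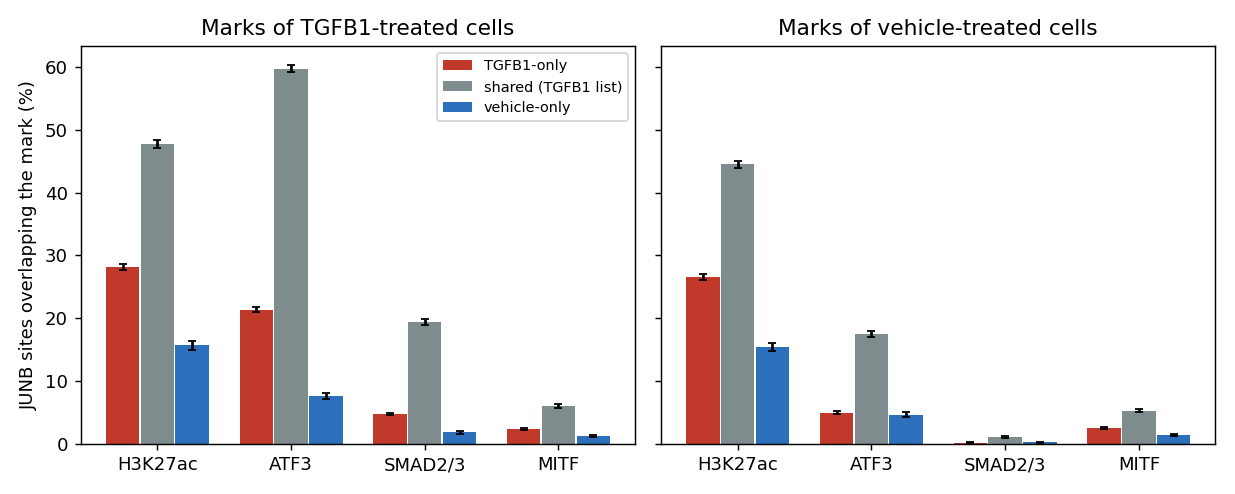
Percentage of TGFB1-only (red), shared (grey) and vehicle-only (blue) JUNB sites that overlap a peak of H3K27ac, ATF3, SMAD2/3 or MITF, with marks of TGFB1-treated cells on the left and of vehicle-treated cells on the right and 95% Wilson intervals. Shared sites are the highest class for every mark, led by ATF3 with TGFB1 at 59.8%.

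JUNB sites at which acetylation and SMAD2/3 were also called with TGFB1 alone were few. There were 139 such TGFB1-only sites (0.372% of the class) and 459 such shared sites (1.71%). The strongest lay inside SCG5, a secretory chaperone, at chr15:32687613-32687889 with a fold enrichment of 13.2. The next was inside ATP13A2, a lysosomal polyamine transporter, at chr1:17003586-17004176 with 14.8. The third was inside CACHD1, a calcium channel regulator, at chr1:64623703-64624212 with 17.1. The fourth lay inside DHRS3, whose promoter element is shown above, at chr1:12588240-12588826 with 10.5. The others were 47.5 kb outside TMX1 (a thioredoxin-like membrane protein), inside MEGF11 and the transporter gene SLCO3A1, and 37.2 kb outside RHOH, a small GTPase of blood cells. All 8 were more than 5 kb from a gene end, and 6 of them also held ATF3 with TGFB1. In the other direction, 176 vehicle-only JUNB sites (1.57%) overlapped acetylation called with vehicle alone, the strongest inside PCED1B, outside SPMIP9 and TRIM73 and inside NQO2, a quinone reductase. None of these 4 held ATF3.

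The strongest TGFB1-only sites all lay 9.96 kb or more from a gene end. The 10 of highest −log10 p, from 82.3 to 103, were at IGF1R, TCF4, MAMDC2, C13orf46, PRKCI, DOC2B, C12orf75, PRR16, FLRT2 and GALNT17, and their summit pileups ran from 76 to 120 reads. ATF3 with TGFB1 was called at 8 of the 10, and H3K27ac with TGFB1 at 5. At TCF4 (an E-protein), PRKCI (an atypical protein kinase C) and FLRT2 (a cell adhesion protein) H3K27ac was called with TGFB1 and not with vehicle. The 6 strongest shared sites were far stronger within the same list, with −log10 p from 314 to 326, and all 6 held ATF3 and SMAD2/3 with TGFB1. They lay at ANKRD10, PHC2, the receptor kinase gene AXL, the laminin gene LAMC1, PCBP3 and PLEC, a cytoskeletal linker. The 6 strongest vehicle-only sites had −log10 p from 29.0 to 38.7. Those at DUX4 and FRG2B had pileups of 198 and 197 reads with a fold enrichment of only 2.96 and 2.64, while those at DEFB124, NEK9, NSMCE2 and TLR4 had pileups of 32 to 35 and fold enrichments of 10.8 to 12.4. H3K27ac in vehicle was absent from all 6.

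Strong vehicle-only sites as a set stood on high local background. Only 24 had a −log10 p of 25 or more. Of these, 12 were in the largest stretch of their chromosome that holds no gene, 17 held ATF3 with TGFB1 and none held H3K27ac in vehicle. Their median local background was 36.6 reads, against 2.11 over all vehicle-only sites. Such stretches held 0.380% of TGFB1-only, 0.769% of shared and 2.06% of vehicle-only sites, and the part of background in these calls was not tested.

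Genes were called when a summit lay in the gene or within 10 kb. A TGFB1-only site was found at 62.3% of the 19974 protein-coding genes, a shared site at 43.9% and a vehicle-only site at 28.9%. A site of the TGFB1 list and none of the vehicle list was found at 20.7%, the reverse at 4.17%, a site of the vehicle list of any kind at 55.9%, and no site of either at 23.4%. Longer genes hold more sites, and the median gene length was 35.3 kb with a TGFB1-only site, 43.7 kb with a shared one and 51.5 kb with a vehicle-only one, against 24.2 kb over all genes. Neighbouring genes can be called through the same site.

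Genes that carried several TGFB1-only sites and no vehicle site were led by SEMA6A, a transmembrane semaphorin, with 9 sites. Their fold enrichments were 2.40 to 10.9, and 5 of them held H3K27ac, 5 ATF3 and 4 SMAD2/3 with TGFB1. ZFP36L1, an RNA-binding protein that promotes messenger RNA decay, had 8 although the gene spans only 8.59 kb, with fold enrichments of 2.86 to 9.15, H3K27ac at 5 and ATF3 at 5. PKIB, an inhibitor of protein kinase A, had 7, among them 1 of fold enrichment 16.4 at chr6:122696766-122697094. KLF13, a zinc finger transcription factor, had 7 with fold enrichments of 3.59 to 6.44. NELL2, a secreted neural glycoprotein, had 8 and COL23A1, a transmembrane collagen, had 7, and none of those 15 sites overlapped any other mark in either condition. These last genes span 414 and 353 kb. In the other direction GPCPD1, a choline lipid phosphodiesterase, had 5 vehicle-only sites and no TGFB1 site, TAF11L3 had 4, and C1orf53 and DENND10 had 3 each. The TAF11L3 sites had pileups of 43 to 54 reads with fold enrichments of 1.90 to 2.46.

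The AP-1 genes themselves were mostly occupied in both conditions. Of 19 AP-1 family genes, 14 had a TGFB1-only, 13 a shared and 7 a vehicle-only site (73.7%, 68.4% and 36.8%), with a median length of 13 kb. The shares over all genes were 62.3%, 43.9% and 28.9%, and housekeeping genes exceeded the AP-1 genes in each class. JUNB had 3 TGFB1-only and 4 shared sites within 10 kb. Its strongest shared site, chr19:12782488-12784459, reached a fold enrichment of 35.6 at 8.38 kb from the gene, and its 3 TGFB1-only sites had 2.48 to 3.98. FOSL1, a FOS protein abundant in invasive melanoma states, had 4 TGFB1-only sites with fold enrichments of 2.95 to 4.45 and 5 shared sites of up to 19.4. FOSL2 had 4, 5 and 2 vehicle-only, and the strongest TGFB1-only one was inside the gene at chr2:28406451-28407070 with 7.28, on chromatin acetylated in both conditions. ATF3 had 2, 6 and 2, JUND 2, 1 and 1, and JUN 1, 1 and 0. FOS had 1 TGFB1-only site of fold enrichment 4.80, 0.219 kb from the gene, and no vehicle site, and FOSB had 1 shared site. At JUNB, FOSL1, FOSL2, ATF3 and JUND the strongest site of the TGFB1 list was thus a shared one. BATF3 and JDP2, a repressor that binds AP-1 elements, had 1 and 3 sites with TGFB1 and none with vehicle. Together with FOS they made up 15.8% of the list, against 20.7% of all genes.

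Of 36 TGF-beta targets and feedback genes with a median length of 17.2 kb, 32 had a TGFB1-only, 30 a shared and 8 a vehicle-only site. These are 88.9%, 83.3% and 22.2%, against 62.3%, 43.9% and 28.9% of all genes, and housekeeping genes reached 77.8%, 72.2% and 44.4%. Of the 36, 29 had more sites in the TGFB1 list than in the vehicle list while 1 had fewer. Over all 19974 genes, 10580 had more and 1800 had fewer. The list held 202 sites with TGFB1 and 107 with vehicle, where all genes held 48038 and 27333, a site being counted at each gene it calls. The excess of sites with TGFB1 was thus not particular to this list. Only ID2 and ID3, inhibitors of basic helix-loop-helix factors, had sites with TGFB1 and none with vehicle, 5.56% of the list against 20.7% of all genes. Strong TGFB1-only sites were 2.71 kb outside HES1, a Notch-responsive repressor (fold enrichment 14.1), 0.584 kb outside the repressor gene BHLHE40 (10.9), and inside SKI, a SMAD co-repressor (8.78). Those at HES1 and BHLHE40 held SMAD2/3. SMAD7, the inhibitory SMAD, had 6 TGFB1-only and 5 shared sites, SMAD6 10 and 4, and CCN1, a matricellular protein, 7 and 1 over a gene of 3.19 kb. CCN2, a matricellular protein of the same family, had 1 TGFB1-only, 1 shared and 2 vehicle-only sites. BAMBI, CDKN2B, TGFBR1 and SNAI2 had none in either list.

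MAPK feedback genes, which report the activity of the pathway that drives A375 growth, numbered 26, with a median length of 9.20 kb. Of these, 23 had a TGFB1-only, 18 a shared and 7 a vehicle-only site. The shares were 88.5%, 69.2% and 26.9%, against 62.3%, 43.9% and 28.9% of all genes. Housekeeping genes had 77.8%, 72.2% and 44.4%. DUSP10, a phosphatase of stress kinases, had 5 TGFB1-only sites and no others, and the early growth response genes EGR1, EGR2 and EGR3 had 1, 2 and 1 with none in vehicle. Genes with TGFB1 sites and no vehicle site were thus 4 of the 26, 15.4% against 20.7% of all genes. The EGR2 site at chr10:62817817-62818116 had a fold enrichment of 10.4 and was acetylated with TGFB1 and not with vehicle. PHLDA1, the ERK phosphatase DUSP5 and the ETS factor ETV4 followed with 7.33, 6.40 and 7.21. DUSP6, another ERK phosphatase, had 4 TGFB1-only sites and 1 shared.

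**Figure D4:**
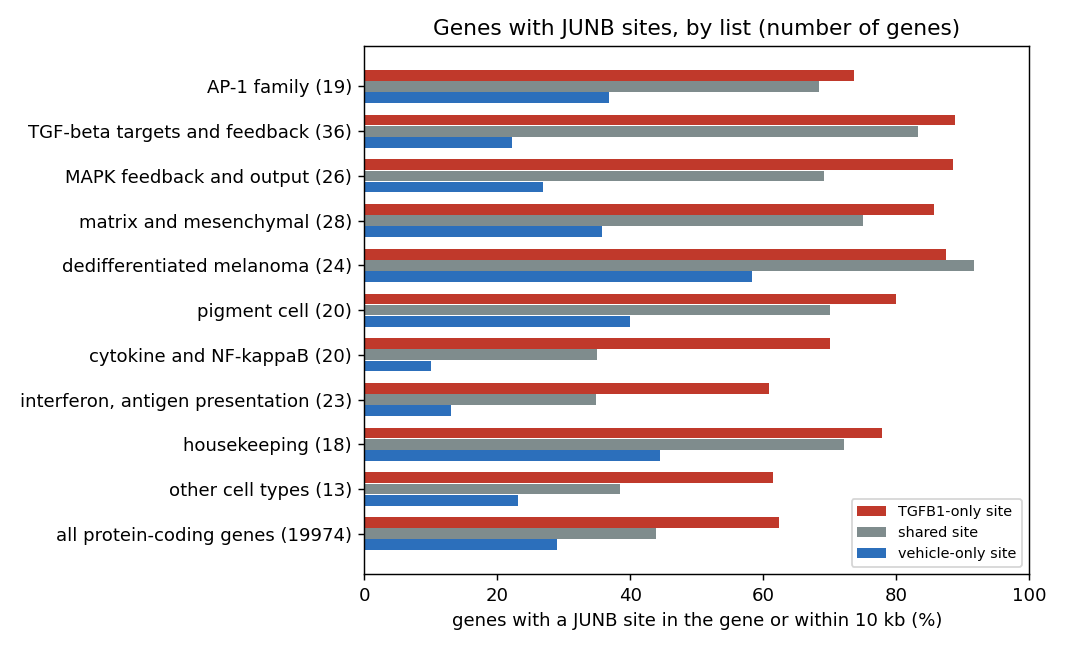
Percentage of genes in each list, with the number of genes in brackets, that had a TGFB1-only (red), shared (grey) or vehicle-only (blue) JUNB site in the gene or within 10 kb. All protein-coding genes are at the bottom, at 62.3%, 43.9% and 28.9%. Cytokine genes, interferon genes and genes of other cell types lie below them for both shared and vehicle-only sites.

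Of 28 matrix and mesenchymal genes, 24 had a TGFB1-only, 21 a shared and 10 a vehicle-only site, with a median length of 36.9 kb. Each share was above that of all genes (62.3%, 43.9% and 28.9%). Against housekeeping genes (77.8%, 72.2% and 44.4%), the TGFB1-only and shared shares were higher and the vehicle-only share was lower. Of the 28, 21 had more sites with TGFB1 than with vehicle and none had fewer. Among all 19974 genes, 10580 had more and 1800 fewer. COL1A1, the type I collagen chain, had the strongest TGFB1-only site of the list, 5.50 kb away at chr17:50178076-50178775, reaching a fold enrichment of 15.9 and a pileup of 88 reads. It carried ATF3 and SMAD2/3 with TGFB1 and H3K27ac in both conditions. LAMB3, with 3 TGFB1-only sites beside the shared promoter site above, COL4A1 and COL5A1 followed with 9.70, 11.9 and 10.3. At COL5A1 the acetylation was called with TGFB1 alone. COL1A2, COL6A2, COL6A3, VCAN and LOX had sites with TGFB1 and none with vehicle, 17.9% of the list against 20.7% of all genes. The strongest vehicle-only sites of the list were 0.051 kb outside LAMC1 and inside MMP1, a collagenase, with 5.30 and 4.61.

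Dedifferentiated melanoma genes had the highest shared share of any list, at 22 of 24, and also the highest vehicle-only share, at 14, with 21 carrying a TGFB1-only site. TGFB1-only, shared and vehicle-only shares were 87.5%, 91.7% and 58.3%, against 62.3%, 43.9% and 28.9% of all genes. Housekeeping genes had 77.8%, 72.2% and 44.4%. JUN and FOSL1 belong to this list and to the AP-1 list. The genes of the list are long, with a median of 52.5 kb. Only TWIST1, a mesenchymal transcription factor, had sites with TGFB1 and none with vehicle, 4.17% of the list against 20.7% of all genes. NRG1, a ligand of ERBB receptors, had 25 TGFB1-only, 14 shared and 2 vehicle-only sites over 1130 kb, IGF1R had 16, 6 and 4, and TCF4 9, 1 and 4. TEAD1, a partner of YAP, had a TGFB1-only site 0.068 kb outside the gene with 9.31. The strongest vehicle-only sites were inside ZEB1, a repressor of epithelial genes, with 8.48, and outside NGFR, the neurotrophin receptor of neural crest-like melanoma cells, with 5.29.

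Of 20 pigment cell genes, 16 had a TGFB1-only, 14 a shared and 8 a vehicle-only site, with a median length of 46.7 kb. Each share was above that of all genes (62.3%, 43.9% and 28.9%). Against housekeeping genes (77.8%, 72.2% and 44.4%), the TGFB1-only share was slightly higher and the shared and vehicle-only shares were lower. TYR, the rate-limiting enzyme of melanin synthesis, had 4 TGFB1-only sites and none in vehicle, while DCT had 1 TGFB1-only and 2 vehicle-only and SLC24A5 none at all. TYR was among 3 genes of the list with TGFB1 sites and no vehicle site, a share below the 20.7% of all genes. MITF had 5 TGFB1-only and 5 shared sites, the strongest TGFB1-only one inside the gene with 7.25 on chromatin acetylated in both conditions. Its 1 vehicle-only site, chr3:69775888-69776061 with 6.59, overlapped a SMAD2/3 peak of the TGFB1 library and no acetylation. GPR143, a melanosome receptor, led the list with a TGFB1-only site of 10.8 that held ATF3 and SMAD2/3.

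Cytokine and interferon genes had shared sites at 35.0% and 34.8%, against 43.9% of all genes, a small gap for lists of this size and of short genes. Of 20 cytokine and NF-kappaB genes, 14 had a TGFB1-only, 7 a shared and 2 a vehicle-only site, and 8 had sites with TGFB1 and none with vehicle, 40.0% against 20.7% of all genes. Of 23 interferon and antigen presentation genes, the counts were 14, 8 and 3, with 9 (39.1%) on the TGFB1 side alone. With the gene body alone, 5 of the 20 and 6 of the 23 had a TGFB1-only site, so the counts of 14 rest largely on sites outside the genes. The same rule took housekeeping genes from 14 to 6 of 18 and all genes from 12434 to 8407 of 19974. The 8 and 9 genes with TGFB1 sites and no vehicle site were not recounted by gene body. Both lists are of short genes, with medians of 6.86 and 8.50 kb, and PSMB8, PSMB9, TAP1 and TAP2 lie beside each other, as do the IFIT genes. NFKBIA, the inhibitor of NF-kappaB, had 1 site, inside the gene with a fold enrichment of 8.75, which also held ATF3, SMAD2/3 and acetylation in both conditions. CCL2, a chemokine for monocytes, had 1 site 2.48 kb outside with 6.48 and the same marks. NFKB1 had 3, IL1B 2, and ICAM1, an adhesion molecule, 1. The strongest TGFB1-only site among interferon genes was inside IFIT3 at chr10:89337570-89337840, with 14.4 and a pileup of 70 reads, and it held ATF3 but no H3K27ac. CIITA, the activator of MHC class II genes, followed with 11.4 at chr16:10877078-10877325 on acetylated chromatin, then NLRC5, the activator of MHC class I genes, with 6.56. CD274, which encodes PD-L1, had 4 shared sites and no others, and HLA-B, HLA-C, CXCL8 and CXCL10 had none in either list.

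Housekeeping genes, which were taken as an unrelated list, had TGFB1-only sites at 14 of 18, shared at 13 and vehicle-only at 8, above the 62.3%, 43.9% and 28.9% of all genes although their median length is 7.65 kb. With the gene body alone this turned round: 6 of 18 had a TGFB1-only and 2 a vehicle-only site, against 8407 and 3839 of the 19974 genes. Genes of other cell types had 8, 5 and 3 of 13, near those shares. ALB, INS, MYH6 and HBB had none, while VWF and PECAM1, of endothelium, had 4 and 3 TGFB1-only sites. A count for any list above therefore has to be read beside that of the housekeeping genes.

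The vehicle-only share varied among chromosomes, and the TGFB1-only share did so less. On chromosomes 6, 13, 14, 21, 22 and X, from 20% (81 of 405, on chromosome 21) to 23.4% of vehicle sites were vehicle-only (1002 of 4729 together, 21.2%), and on the other 17 chromosomes 26.2 to 33.7% were (10177 of 33543, 30.3%). The grouping was made after the values had been seen. TGFB1-only shares ran from 52.3 to 61.4% over all chromosomes. The median local background at vehicle sites moved with the vehicle-only share, at 1.83 to 2.11 reads on the 6 chromosomes and 2.03 to 2.88 on the others, with a Spearman correlation of 0.651 over 23 chromosomes of 1 library. For TGFB1 the value was −0.0259. Its part in the vehicle-only counts was not tested.

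**Figure D5:**
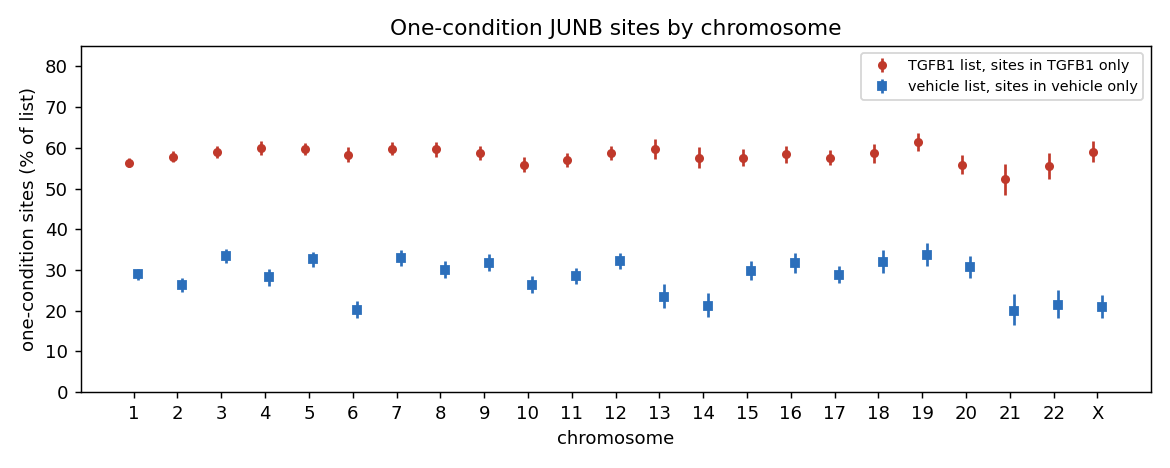
Percentage of sites found in 1 condition alone on each chromosome, with 95% Wilson intervals, for the TGFB1 list (red circles) and the vehicle list (blue squares). TGFB1-only shares stay between 52.3 and 61.4%, and vehicle-only shares are lowest on chromosomes 6, 13, 14, 21, 22 and X, at 20% to 23.4%.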

How the data were processed

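JUNB chromatin immunoprecipitation libraries of A375 cells were compared as deposited peak lists, 1 for TGFB1 and 1 for vehicle, with the lists of ATF3, SMAD2/3, H3K27ac and MITF as annotation. Per the submitters' processing notes, reads were aligned with Bowtie to GRCh38 and peaks called with MACS2 (2.0). The control used for calling and the handling of duplicates are not given in the sources used here. The fold enrichment of a peak (a ratio of pileup to local background) is the authors' deposited value. The −log10 p and −log10 q of a peak are also as deposited by the authors. The score and the summit offset were deposited too; the score was not used.

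Overlaps, shares and Wilson intervals were computed in Python 3.11.15 (numpy 2.4.6, scipy 1.17.1, pandas 2.3.3), with plots by matplotlib 3.10.9. Overlap and recovery steps were tested on simulated data. A site was placed by its summit of highest −log10 p. Pileup and background were solved from fold enrichment and −log10 p assuming 1 added read in each, and every JUNB pileup came out whole within 0.01 reads. Depth is an estimate from the lowest background, the length of the shortest peak and a genome taken as 2.7 Gb. All 19974 protein-coding entries of the RefSeq gene table (GRCh38.p14) were used. Promoter windows matched 79.2% of these genes by gene identifier, and none lay on chromosome 8. Distances to transcription starts used the windows of matched genes, 22132 of 34961 (63.3%), and left out sites on chromosome 8. Element shares used every window, 34789 with identical ones counted once, so they also cover windows of other genes.

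Members and gene lists were chosen with earlier results of these data known. Named sites were the 10, 6 and 6 strongest TGFB1-only, shared and vehicle-only sites with a gene within 100 kb, the 8 strongest with gained acetylation and SMAD2/3 and 4 with vehicle-only acetylation, the 6 and 4 genes with most one-condition sites, and the strongest members of each list with all JUN, FOS and ATF3 genes. Other list members were named after their counts were seen. Some genes that the rule names are left out of the text. Alternatives covered thresholds, overlap rules, list length, depth, gene-free stretches and gene windows.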

Additional observations from a re-analysis of the deposited data

Results flagged for a closer look

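Sequence outside chromosomes 1 to 22 and X was not part of the comparison, and JUNB peaks were listed there in both libraries. The TGFB1 list held 261 such sites (0.405% of the list), of which 154 (59.0%) overlapped a vehicle site. The vehicle list held 242 (0.628%), of which 159 (65.7%) overlapped a TGFB1 site. Median fold enrichment was 3.25 in the TGFB1 list and 2.85 in the vehicle list, and median −log10 p was 13.3 and 13.5. The inputs were not analysed here, so these counts have no level of control samples beside them.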

How the results depend on the processing

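TGFB1-only sites outnumbered vehicle-only sites under the 7 alternatives that did not equalise list length, while most shares moved. The shared share of the TGFB1 and vehicle lists was 47.3% and 85.9% at −log10 q of at least 5, 51.3% and 85.2% at a fold enrichment of at least 6, 33.7% and 56.5% with reciprocal overlap of 50%, 45.0% and 72.9% with a 500 bp margin, 40.3% and 69.2% with a summit inside the other site, and 63.1% and 64.0% at equal list length. Scaling TGFB1 to vehicle depth gave 43.3% in its list. TGFB1-only sites numbered 13146 at that fold enrichment and 14129 at equal length, where near equality with the 13795 vehicle-only sites follows from the equal lengths, and vehicle-only sites 3737 at that −log10 q and 2426 at that fold enrichment. Leaving out gene-free stretches moved neither shared share beyond counting error, at 41.7% and 71.1%, and left 37208 TGFB1-only and 10949 vehicle-only sites. Gene ends held 9.04% of TGFB1-only, 5.29% of shared and 5.61% of vehicle-only sites within 500 bp, 23.2%, 17.97% and 19.8% within 5 kb, and 11.6%, 6.14% and 9.77% at −log10 q of at least 5, with TGFB1-only highest in each. H3K27ac was at 21.99%, 24.0% and 12.6% of the classes with the summit inside, and at 26.4%, 44.9% and 14.3% with H3K27ac peaks of −log10 q of at least 5. At TGFB1-only and shared sites, a summit inside the other peak gave 18.4% and 56.0% for ATF3, 3.82% and 17.8% for SMAD2/3 and 1.75% and 4.85% for MITF, and the 5000 strongest peaks gave 2.18% and 8.05% for ATF3 and 1.83% and 11.3% for SMAD2/3. Genes with a shared site numbered 5809 by gene body and 14141 within 50 kb. Genes with a vehicle-only site numbered 3839 by gene body, 10305 within 50 kb and 2390 at −log10 q of at least 5. The cause was not tested. No paired analysis was possible because each side has 1 library, and for the same reason no replicate could be left out. The planned motif windows around summits needed a genome sequence and were not run. Depth limits weak sites: the shallower vehicle library had a median pileup of 19 reads.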
